A study of Mus musculus with 7 samples.

Results

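Genes of the mitochondrial respiratory chain and ATP synthase were examined in mouse neural stem cells of 3 genotypes. The set holds the listed genes whose symbol begins with Nduf, Uqc, Atp5 or mt-, together with Sdha to Sdhd and the Cox4 to Cox8 families, without mitochondrial tRNA and rRNA genes. It comprises 111 of the 18145 genes in the deposited table, of which 98 are nuclear and 13 are encoded in mitochondrial DNA. All 111 passed the filter on low values. The rule itself reads symbols only. The 98 nuclear genes include 5 copies or pseudogenes and 11 assembly factors. Cyc1 and Cycs fall outside the symbol rule and are described with the other pathway genes.

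RNA sequencing covered 3 wild-type (WT) libraries, 2 labelled Tet-TFoCa (TFoCa) and 2 labelled Tet-TMut (TMut). Per the design text the libraries come from separate lines collected at their first passage, and that text writes Tet-FoCa for the second genotype. Tet enzymes oxidise 5-methylcytosine in DNA, but the labels do not say which Tet gene or which step either allele changes, or whether any line shares its origin with another. The labels do not describe how the lines were derived, so p-values measure the spread between these lines.

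Respiratory complexes I, III and IV pass electrons from NADH and ubiquinol to oxygen and pump protons across the inner mitochondrial membrane. Complex II feeds electrons from succinate without pumping, and complex V, the ATP synthase, uses the proton gradient to make ATP. Mitochondrial DNA encodes a few core subunits of complexes I, III, IV and V, and every other subunit, including all of complex II, is encoded in the nucleus. Supernumerary subunits surround the catalytic core subunits, and assembly factors help build a complex without staying in it. Neural stem cells are generally held to rely more on glycolysis than neurons do, and respiratory gene expression rises during neuronal differentiation.

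Summed counts ranged from 33340167 (TFoCa 2) to 62545457 (WT 2) reads, above the read number that the design text states. Between 70.3% and 79.3% of the counts from 1 to 20 were even numbers, the highest share being in TMut 1. Whether each count stands for a separate RNA fragment was not tested, so the sums may overstate the number of fragments. All 9 neural stem cell markers were listed, with summed normalized counts of 164794 to 169718 in WT, 150288 to 154197 in TFoCa and 130305 to 154154 in TMut. In TMut against WT 6 of these 9 fell and 1 rose. All 7 neuron markers fell in TMut against WT, from a summed 53192 to 57239 in WT to 8262 to 14227 in TMut. In the same comparison 4 of 4 listed astrocyte markers and 5 of 6 oligodendrocyte lineage markers fell, and 6 of 10 mesenchymal markers rose while 1 fell. Of all tested genes 18.4% rose and 20.4% fell in TMut against WT. In TFoCa against WT, 8 of 10 mesenchymal and 6 of 8 listed striated muscle markers rose, and 7 of 7 pluripotent cell markers fell. Of all tested genes 5.25% rose and 3.52% fell there. Pluripotent cell markers summed to 7443 to 15414 in WT, 646 to 927 in TFoCa, and 6609 and 23153 in TMut, whose libraries differed widely. In TMut 0 of the 7 rose and 1 fell against WT, and 7 rose and 0 fell against TFoCa. Of all tested genes 17.3% rose and 18.5% fell in TMut against TFoCa. In these bulk libraries, fewer cells of a type and less RNA per cell cannot be told apart. The part of these marker differences in the results below was not tested.

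Most respiratory chain genes were higher in TMut than in WT. Of the 111 members, 69 rose and 4 fell (limma, Benjamini-Hochberg adjusted p under 0.05 over all 18134 genes tested), while 18.4% of all tested genes rose and 20.4% fell, 38.8% in either direction. The median log2 fold change, taken on log2(normalized count + 1), was 0.53 over the members and 0.00 over all genes. The difference was positive in 104 of 111 members. In 88 members both TMut libraries lay above the other 5 libraries, as did 23.4% of all tested genes, and in 5 members both lay below, against 25.4%. The TMut comparisons share libraries with each other and with the TFoCa comparison. The map of members by library shows that both TMut columns carry the shift and that it spans complexes I to V. In complex II both TMut libraries lay above the other 5 in 3 of 4 genes, though only 1 passed the test.

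**Figure D1:**
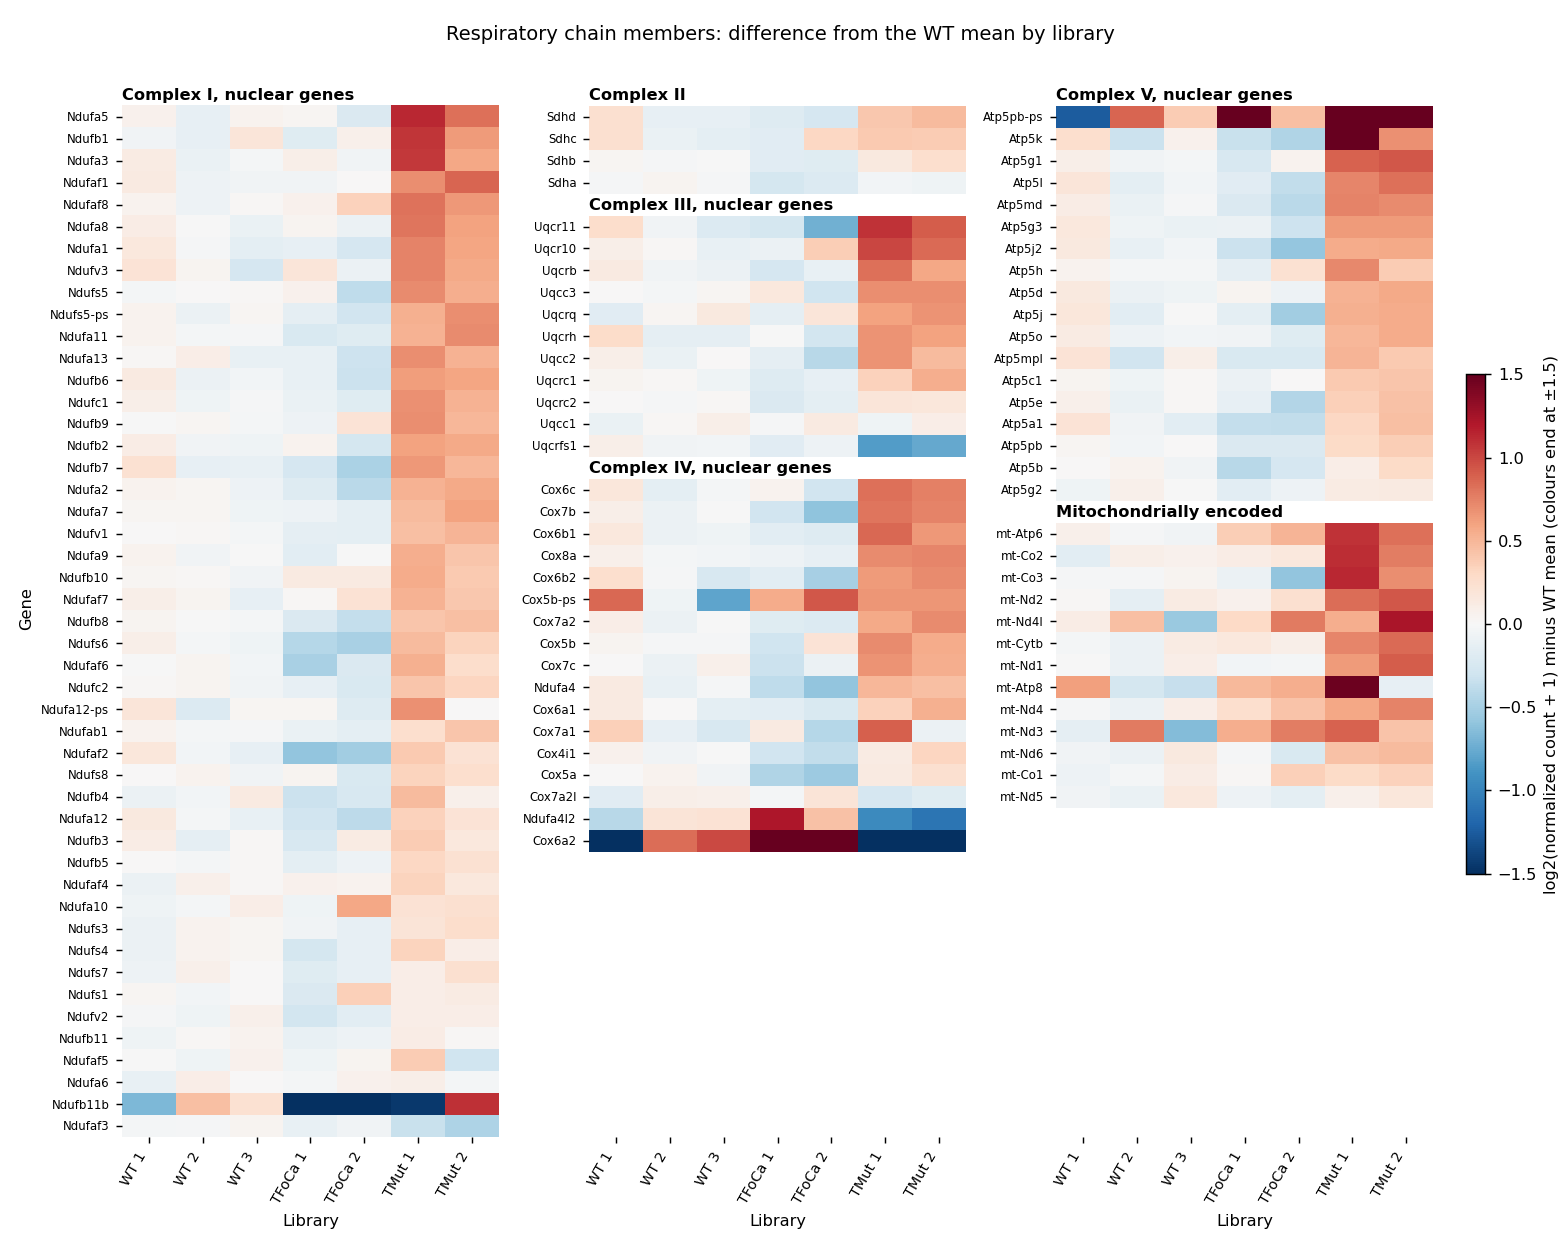
Each row is a member and each column a library, with 1 member not drawn. Colour gives log2(normalized count + 1) minus the mean of the 3 WT libraries, with colours ending at 1.5 in either direction. Both TMut columns lie above the other 5 libraries in 88 of the 111 members, and Uqcrfs1, Ndufa4l2 and Cox6a2 are low in both.

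In complex I, 24 of 37 nuclear subunit genes rose in TMut against WT and 0 fell, with a median log2 fold change of 0.47. The rise was uneven between kinds of subunit. Of the 7 nuclear core subunit genes, 1 rose (median 0.17), and of the 30 supernumerary subunit genes, 23 rose (median 0.54). The core gene that rose was Ndufv1, which encodes the NADH-binding flavoprotein, with 4804, 4834 and 4665 normalized counts in WT, 4350 and 4321 in TFoCa, and 6529 and 6802 in TMut. Its log2 fold change in TMut against WT was 0.48 ± 0.08 (SE, adjusted p = 0.00323), and it was chosen for mention after its values were seen. Ndufs1, an iron-sulfur subunit of the NADH-oxidising arm, had 4043, 3842 and 3958 in WT, 3403 and 5049 in TFoCa, and 4217 and 4300 in TMut. TFoCa 2 alone stood high for Ndufs1 and Ndufa10, where it exceeded the other 6 libraries, and these genes were likewise singled out after their values were seen. In TFoCa against WT, Ndufs1 turned from 0.07 to -0.21 without TFoCa 2 (adjusted p = 0.22). Ndufa10 turned from 0.26 to -0.07 without TFoCa 2 (adjusted p = 0.745) and passed at 0.58 without TFoCa 1 (adjusted p = 0.024). The difference between core and supernumerary genes was not tested.

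Ndufa5, a supernumerary subunit of the peripheral arm, had 1215, 1067 and 1198 normalized counts in WT, 1186 and 994 in TFoCa, and 2531 and 2046 in TMut. Both TMut libraries lay well above the other 5, which overlapped. The log2 fold change in TMut against WT was 0.97 ± 0.14 (SE, adjusted p = 0.00166), the largest of the nuclear complex I subunits. Ndufa11, a membrane-arm subunit, had 2510, 2373 and 2402 in WT, 2070 and 2141 in TFoCa, and 3476 and 3963 in TMut. It was lower in both TFoCa libraries than in every WT library, though that difference of -0.21 ± 0.10 (adjusted p = 0.239) did not pass, and its log2 fold change in TMut against WT was 0.61 ± 0.10 (adjusted p = 0.00253).

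NRF1, a transcription factor that binds a GC-rich palindrome at many respiratory gene promoters, has textbook targets among the nuclear-encoded Nduf genes. The 200 bases before the gene start of 3 complex I members that rose in TMut are shown because each holds the NRF1 motif, GCGCA and GCGC with any 1 base between them, and that of Uqcrfs1 because it fell. Capitals mark motif matches. They are RefSeq sequences on GRCm38.p6 at chr6:24527691-24527890 (Ndufa5, minus strand), chr17:56717562-56717761 (Ndufa11, plus strand), chr2:36049339-36049538 (Ndufa8, minus strand) and chr13:30545317-30545516 (Uqcrfs1, minus strand).
Ndufa5: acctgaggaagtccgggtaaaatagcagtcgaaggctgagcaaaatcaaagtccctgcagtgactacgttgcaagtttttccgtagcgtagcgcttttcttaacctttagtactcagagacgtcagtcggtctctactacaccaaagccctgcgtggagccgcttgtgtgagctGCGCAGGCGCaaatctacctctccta
Ndufa11: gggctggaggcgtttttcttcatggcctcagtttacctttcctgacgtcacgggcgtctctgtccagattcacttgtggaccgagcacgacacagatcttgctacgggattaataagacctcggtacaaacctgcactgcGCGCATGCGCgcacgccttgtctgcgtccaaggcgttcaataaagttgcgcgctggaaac
Ndufa8: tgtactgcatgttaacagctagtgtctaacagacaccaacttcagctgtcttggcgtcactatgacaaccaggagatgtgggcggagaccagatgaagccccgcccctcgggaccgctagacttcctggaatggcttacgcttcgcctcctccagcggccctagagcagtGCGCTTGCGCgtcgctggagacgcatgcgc
Uqcrfs1: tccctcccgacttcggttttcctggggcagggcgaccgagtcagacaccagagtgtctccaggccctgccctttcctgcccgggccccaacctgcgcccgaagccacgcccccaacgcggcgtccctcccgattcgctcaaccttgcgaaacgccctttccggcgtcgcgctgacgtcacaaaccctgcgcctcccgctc
The NRF1 match starts 26 bases before the gene start of Ndufa5, 60 before that of Ndufa11 and 30 before that of Ndufa8. The Ndufa11 match reads the same on both strands. The Uqcrfs1 stretch, with 22 CpG dinucleotides, holds no match to the NRF1, GABPA or YY1 letters.

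RefSeq promoter windows, from 250 bases before to 50 bases after a gene start, matched 78 of the members by symbol. The NRF1 letters, searched on both strands as were the others, occurred in windows of 20 of these 78 (25.6%) and in 9.91% of the 12726 listed genes with a window. The GABPA letters CCGGAAG occurred in 19 members (24.4%) and 17.4% of genes, and the YY1 letters AAGATGGCG in 8 members (10.3%) and 2.99% of genes. The ERR letters TCAAGGTCA occurred in 2 members. Of the 20 members with an NRF1 match, 14 rose in TMut against WT with a median log2 fold change of 0.45, and of the 58 without, 40 rose with a median of 0.51. With a GABPA match 16 of 19 rose (median 0.61), and without one 38 of 59 rose (median 0.46). A match describes the letters in a window and no binding was measured.

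Complex I assembly factors were mixed, with 3 of 8 higher and 1 lower in TMut than in WT. Ndufaf1, a chaperone of the membrane arm, had 592, 513 and 519 normalized counts in WT, 521 and 542 in TFoCa, and 879 and 992 in TMut, a log2 fold change of 0.79 ± 0.14 (SE, adjusted p = 0.00397). Ndufaf8 rose by 0.73 ± 0.15 (adjusted p = 0.00637). Ndufaf3, an early assembly factor, had 1065, 1073 and 1111 in WT, 1002 and 1048 in TFoCa, and 857 and 786 in TMut. Both TMut libraries were the lowest, with a log2 fold change of -0.40 ± 0.11 (adjusted p = 0.0252). That call was lost without any 1 of the WT libraries (adjusted p = 0.0535, 0.0828 and 0.0918 without WT 1, 2 and 3) and without TMut 2 (adjusted p = 0.129).

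Complex II, the succinate dehydrogenase that also serves the tricarboxylic acid cycle, had a median log2 fold change of 0.29 in TMut against WT, the lowest nuclear median of the 5 whole complexes. Sdhd, a membrane anchor, was the 1 of 4 genes that rose in TMut against WT. Its normalized counts were 4225, 3268 and 3280 in WT, 3107 and 2993 in TFoCa, and 4722 and 4969 in TMut, a log2 fold change of 0.44 ± 0.13 (SE, adjusted p = 0.0301). WT 1 lay closer to the TMut libraries than to the other WT libraries. The call was lost without WT 2 or WT 3 (adjusted p = 0.103 and 0.101) and without TMut 1 or TMut 2 (adjusted p = 0.0765 and 0.139). Sdha, the flavoprotein subunit, had 8865, 9228 and 8857 in WT, 7491 and 7814 in TFoCa, and 8742 and 8567 in TMut, with a log2 fold change of -0.05 ± 0.08 (adjusted p = 0.639). The iron-sulfur subunit gene Sdhb and the anchor gene Sdhc gave 0.20 ± 0.08 (adjusted p = 0.0977) and 0.38 ± 0.17 (adjusted p = 0.11). Sdhc passed without TFoCa 1 or TFoCa 2 (adjusted p = 0.0456 and 0.0455).

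In complex III, 6 of 8 nuclear subunit genes rose in TMut against WT and 1 fell. Uqcrfs1, the Rieske iron-sulfur protein that takes electrons from ubiquinol, was the gene that fell. Its normalized counts were 5590, 5078 and 5132 in WT, 4670 and 4991 in TFoCa, and 2948 and 3094 in TMut. Both TMut libraries lay far below the other 5, with log2 fold changes of -0.80 ± 0.09 against WT (SE, adjusted p = 0.000624) and -0.68 ± 0.10 against TFoCa (adjusted p = 0.00332). Both calls held in every alternative run.

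The other complex III subunits went the opposite way to Uqcrfs1. Uqcr11, a small supernumerary subunit, had 2313, 1850 and 1669 normalized counts in WT, 1606 and 1164 in TFoCa, and 4068 and 3626 in TMut. The log2 fold change of Uqcr11 was 0.995 ± 0.18 against WT (SE, adjusted p = 0.00454) and 1.49 ± 0.20 against TFoCa (adjusted p = 0.0025). Among the 3 complex III assembly factors, Uqcc2 and Uqcc3 rose by 0.57 ± 0.13 (adjusted p = 0.0106) and 0.70 ± 0.16 (adjusted p = 0.0112). Uqcc2 lost its call without TMut 1 (adjusted p = 0.0652) and Uqcc3 without TMut 2 (adjusted p = 0.0573). Uqcc1 gave 0.02 ± 0.12 (adjusted p = 0.93).

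In complex IV, cytochrome c oxidase, 10 of 16 nuclear subunit genes rose in TMut against WT and 2 fell. Cox8a, the general form of the smallest subunit, had 6508, 6039 and 5998 normalized counts in WT, 5851 and 5660 in TFoCa, and 10100 and 10300 in TMut. The TMut libraries stood clear of the rest, with a log2 fold change of 0.72 ± 0.09 (SE, adjusted p = 0.000708). Cox6b1 and Cox7b, a pair of further small subunits, rose by 0.76 ± 0.11 (adjusted p = 0.00194) and 0.77 ± 0.12 (adjusted p = 0.0025). Cox4i1, the largest nuclear-encoded subunit, gave 0.23 ± 0.10 (adjusted p = 0.11), with 14487, 13356 and 13849 in WT, 11427 and 10760 in TFoCa, and 15144 and 17420 in TMut. Cox7a2l, which links complexes III and IV, gave -0.21 ± 0.12 (adjusted p = 0.192). Of its relatives, the general form Cox7a2 rose by 0.64 ± 0.10 (adjusted p = 0.00234), and the muscle form Cox7a1, at 52.9 to 80.8 in WT, gave 0.40 ± 0.41 (adjusted p = 0.467). Cox6b2, known as the testis form, was listed at 2248 to 3169 in WT and rose by 0.67 ± 0.16 (adjusted p = 0.0146), a call lost without TMut 2 (adjusted p = 0.0802).

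The pair of complex IV genes that fell in TMut are alternative forms of subunits whose general forms rose. Cox6a2, the heart and skeletal muscle form, had 7.85, 55.8 and 62.1 normalized counts in WT, 133 and 173 in TFoCa, and 2.30 and 7.20 in TMut. Cox6a2 gave log2 fold changes of -2.60 ± 0.88 against WT (SE, adjusted p = 0.049) and -4.87 ± 0.96 against TFoCa (adjusted p = 0.0081). The first call was lost without any 1 of WT 2, WT 3, TFoCa 1, TFoCa 2, TMut 1 or TMut 2 (adjusted p = 0.14, 0.143, 0.0599, 0.0602, 0.21 and 0.0723). The value against WT was -1.73 with a pseudocount of 8 (adjusted p = 0.0616), -1.95 without TMut 1 and -3.26 without TMut 2, so at these low counts it depends on the pseudocount and on the library. Striated muscle markers summed to 2442 to 4403 in WT, 9025 to 29540 in TFoCa and 5123 to 6052 in TMut. Their part in the Cox6a2 values was not tested. Cox6a1, the general form, had 9606, 8792 and 7917 in WT, 7839 and 7481 in TFoCa, and 11093 and 12619 in TMut, a rise of 0.44 ± 0.11 (adjusted p = 0.0184) that was lost without WT 2, WT 3 or TMut 2 (adjusted p = 0.0596, 0.0685 and 0.127).

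Ndufa4l2, a hypoxia-inducible relative of Ndufa4, had 128, 195 and 198 normalized counts in WT, 395 and 231 in TFoCa, and 87.5 and 79.2 in TMut. The 3 genotypes did not overlap, and the log2 fold change was -1.02 ± 0.32 against WT (SE, adjusted p = 0.0368) and -1.85 ± 0.35 against TFoCa (adjusted p = 0.00687). The call against WT was lost without WT 2, WT 3, TMut 1 or TMut 2 (adjusted p = 0.116, 0.118, 0.0838 and 0.139). Ndufa4, first described in complex I and now placed in complex IV, had 3137, 2641 and 2817 in WT, 2196 and 1894 in TFoCa, and 4026 and 3904 in TMut. It was lowest in TFoCa and highest in TMut, with 0.47 ± 0.11 in TMut against WT (adjusted p = 0.0141), a call lost without WT 2, WT 3, TMut 1 or TMut 2 (adjusted p = 0.0592, 0.0522, 0.0638 and 0.0589).

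**Figure D2:**
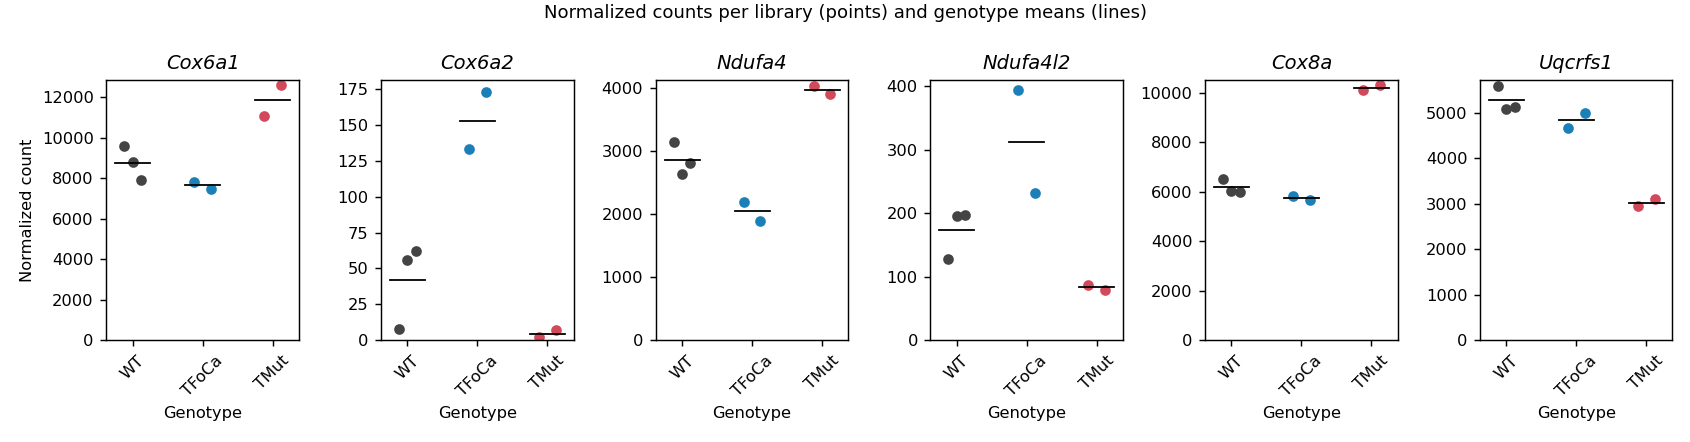
Normalized counts (vertical axes, starting at 0) of 6 members by genotype, with a point for each library and a line at the genotype mean. Cox6a1, Ndufa4 and Cox8a are highest in TMut, while Cox6a2, Ndufa4l2 and Uqcrfs1 are lowest there.

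In complex V, 14 of 17 nuclear subunit genes rose in TMut against WT and 0 fell, and both TMut libraries lay above the other 5 for all 17. Of the catalytic F1 head, 4 of 5 genes rose (median log2 fold change 0.40), and of the membrane Fo part, stalk and accessory subunits, 10 of 12 rose (median 0.56). Atp5g1 encodes the proton-carrying c subunit, as do Atp5g2 and Atp5g3, whose mature proteins are the same. Atp5g1 had 3734, 3385 and 3441 normalized counts in WT, 2971 and 3643 in TFoCa, and 6502 and 6723 in TMut, a log2 fold change of 0.91 ± 0.11 (SE, adjusted p = 0.000833). Atp5g3 rose by 0.64 ± 0.12 (adjusted p = 0.00421), and Atp5g2 gave 0.13 ± 0.09 (adjusted p = 0.287). Atp5g1, Atp5h, Atp5l, Ndufab1 and Ndufs3 each have a near-identical pseudogene copy in the table, so reads may be split between gene and copy and their levels are uncertain. Atp5md, a small membrane subunit, rose by 0.73 ± 0.11 (adjusted p = 0.00196).

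Atp5b, the catalytic beta subunit, had 43913, 45619 and 42217 normalized counts in WT, 32897 and 36932 in TFoCa, and 46848 and 53618 in TMut, and its log2 fold change in TMut against WT was 0.19 ± 0.12 (SE, adjusted p = 0.224). Atp5k, the small e subunit at the dimer interface, had 1180, 790 and 1031 in WT, 785 and 719 in TFoCa, and 2795 and 1590 in TMut. The TMut libraries differed widely from each other. Its log2 fold change of 1.09 ± 0.26 (adjusted p = 0.0124) dropped to 0.69 without TMut 1, where the call was lost (adjusted p = 0.0638).

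**Figure D3:**
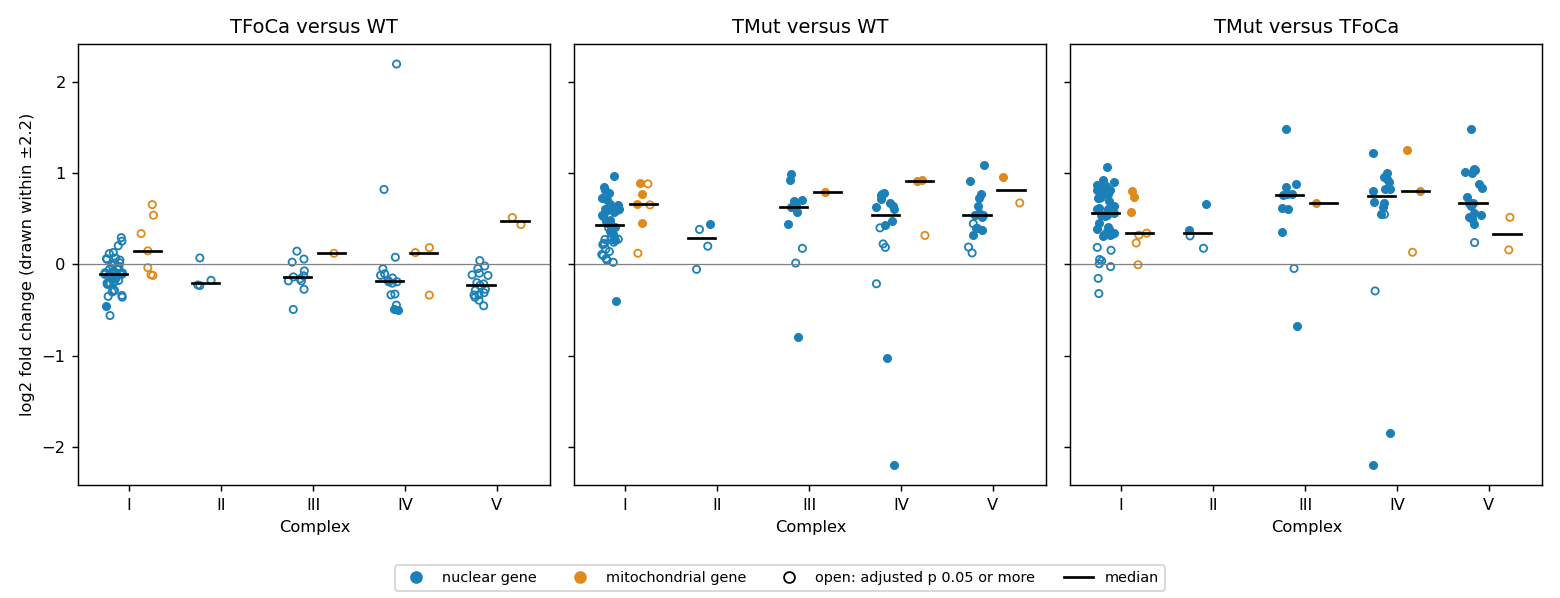
Log2 fold change (vertical axis) of members without copies and pseudogenes, by complex (horizontal axis) for 3 comparisons. Blue points are nuclear and orange points mitochondrial genes, filled where the adjusted p was under 0.05, bars are medians, and Cox6a2 is drawn at the edge of the 2.2 range. Medians of nuclear genes lie below 0 for TFoCa against WT and above 0 for both TMut comparisons.

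The 13 mitochondrially encoded members were also higher in TMut than in WT, with 8 rising, 0 falling and a median log2 fold change of 0.77. Their level, mt-Atp8 apart, differed with the presence of a nearly whole annotated nuclear copy. Nuclear genomes hold insertions of mitochondrial DNA, and a read that matches both places equally cannot be assigned to either. A stretch of mt-Co2, a catalytic subunit of cytochrome c oxidase, is shown beside its annotated copies because the copy on chromosome 1 is identical and that on chromosome 2 is not. The sequences are from GENCODE M21 on GRCm38, at chrM:7023-7132 (plus strand), chr1:24615446-24615555 (minus strand) and chr2:22587843-22587952 (minus strand), and capitals mark bases that differ from mt-Co2.
mt-Co2: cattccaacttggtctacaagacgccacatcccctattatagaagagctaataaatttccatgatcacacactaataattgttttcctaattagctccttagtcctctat
Gm28661: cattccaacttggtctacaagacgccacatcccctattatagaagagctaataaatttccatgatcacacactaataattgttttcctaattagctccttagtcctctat
Gm13341: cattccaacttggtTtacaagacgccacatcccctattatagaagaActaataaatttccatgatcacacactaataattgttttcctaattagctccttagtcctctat
Counted from the first base of mt-Co2, the differences of Gm13341 within this stretch are C25T and G57A.

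A listed chromosome 1 copy covered nearly the whole of 5 mitochondrial genes, mt-Co2, mt-Atp6, mt-Co3, mt-Nd3 and mt-Nd4l, at 99.7% to 100% identity. These 5 had WT mean counts of 30.2 to 414 per kilobase of gene. Of the 8 others, 7 had 14212 to 104467 per kilobase, and mt-Atp8, the shortest, had 115. For mt-Nd3, a core subunit of complex I, the WT mean was 10.5 normalized counts and that of its copy Gm28438 was 329. mt-Co2 had a WT mean of 283 and Gm28661 of 414. The levels of these 5 genes are therefore uncertain, and how multiply matching reads were counted is not given in the sources used here. Partial copies covered 63.6% of mt-Nd4 at 100% identity and 31.3% of mt-Co1 at 99.8%, so their levels may be affected too. No copy of mt-Atp8 was annotated, though its level was as low as that of the 5 genes. Only annotated transcripts were searched, so a copy of mt-Atp8 without annotation would have been missed.

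**Figure D4:**
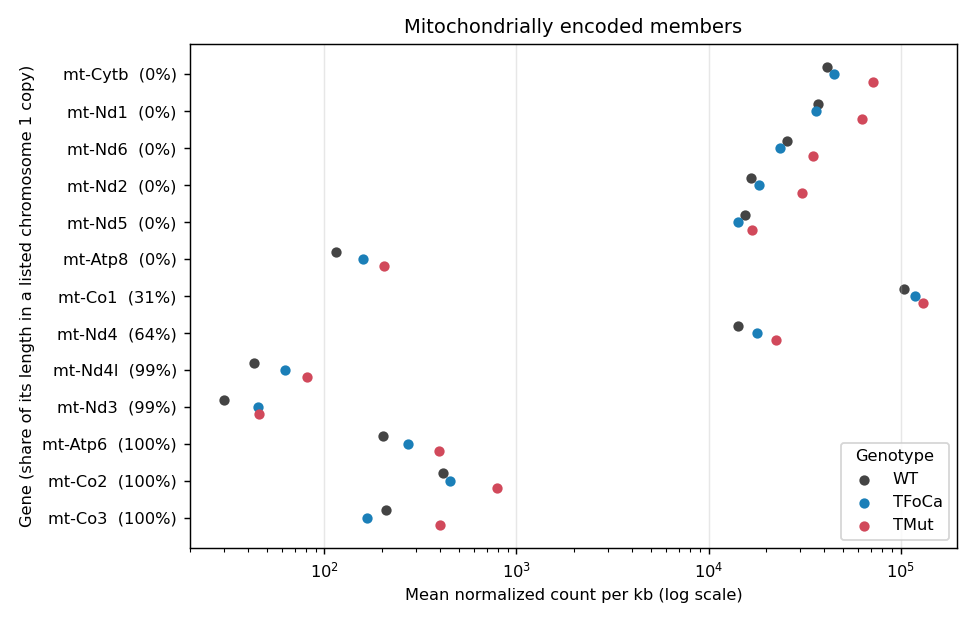
Mean normalized count per kilobase (horizontal axis, log scale) of the 13 mitochondrially encoded members by genotype, with the share of each gene found in a listed chromosome 1 copy in the row label. The 5 genes with a nearly whole copy and mt-Atp8 lie far below the other 7.

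Among the genes without a nearly whole copy, mt-Nd2, mt-Cytb, mt-Nd1, mt-Nd4 and mt-Nd6 rose in TMut, mt-Nd4 having a partial copy. mt-Nd2, a membrane subunit of complex I, had 17365, 15595 and 18591 normalized counts in WT, 17889 and 20206 in TFoCa, and 30690 and 32813 in TMut, a log2 fold change of 0.89 ± 0.11 (SE, adjusted p = 0.000985). mt-Cytb, the core subunit of complex III, had 46032, 44318 and 51288 in WT, 52586 and 50035 in TFoCa, and 78489 and 85140 in TMut, a log2 fold change of 0.79 ± 0.12 (adjusted p = 0.00171). In both genes the TMut libraries stood clear of the other 5.

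mt-Nd1 and mt-Nd4 rose by 0.77 ± 0.12 (SE, adjusted p = 0.00241) and 0.66 ± 0.11 (adjusted p = 0.00331) in TMut against WT. mt-Nd6, the one subunit gene on the light strand, rose by 0.46 ± 0.11 (adjusted p = 0.0151), a call lost without WT 2, TMut 1 or TMut 2 (adjusted p = 0.0638, 0.0528 and 0.0825). mt-Nd5 had 27111, 26213 and 31321 normalized counts in WT and 29668 and 31647 in TMut, which overlapped (0.12 ± 0.11, adjusted p = 0.417). mt-Co1, the catalytic subunit of complex IV, had 152519, 157484 and 174201 in WT, 163136 and 205643 in TFoCa, and 196703 and 205449 in TMut, with a log2 fold change of 0.32 ± 0.16 (adjusted p = 0.149). TFoCa 2 was as high as the TMut libraries for mt-Co1.

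Of the genes with a nearly whole copy, mt-Co2, mt-Atp6 and mt-Co3 rose by 0.93 ± 0.18 (SE, adjusted p = 0.00602), 0.95 ± 0.21 (adjusted p = 0.00906) and 0.92 ± 0.25 (adjusted p = 0.022) in TMut against WT. mt-Co3 lost its call without WT 1, WT 2, WT 3 or TMut 1 (adjusted p = 0.058, 0.0706, 0.0647 and 0.117). The copies Gm28661 and Gm10925, which match mt-Co2 and mt-Atp6, had log2 fold changes of 1.09 (adjusted p = 0.00554) and 1.09 (adjusted p = 0.00491). Gm28437, Gm28438 and Gm10222, which match mt-Co3, mt-Nd3 and mt-Nd4l, gave 0.47, 0.51 and 0.32 and did not pass (adjusted p = 0.101, 0.106 and 0.424). mt-Nd3, mt-Nd4l and mt-Atp8, with WT means of 10.5, 12.8 and 23.4 normalized counts, gave 0.65 ± 0.56, 0.88 ± 0.51 and 0.67 ± 0.57 (adjusted p = 0.386, 0.202 and 0.377). None of the 3 passed, and their low counts give wide errors.

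The 13 mitochondrial genes together took 0.785%, 0.777% and 0.878% of the counts in WT, 0.838% and 0.922% in TFoCa, and 1.05% and 1.11% in TMut. The means were 0.813% ± 0.056 in WT (SD, n = 3), 0.880% ± 0.059 in TFoCa (SD, n = 2) and 1.08% ± 0.042 in TMut (SD, n = 2). TMut lay above WT by 0.264 percentage points (two-sided exact permutation p = 0.1, the smallest this design allows) and above TFoCa by 0.197 (exact p = 0.333, again the smallest possible). TFoCa and WT differed by 0.0668 points (exact p = 0.3). mt-Co1 alone made up 43.4% to 54.9% of these counts. The 98 nuclear members took 1.01%, 0.948% and 0.932% in WT, 0.845% and 0.855% in TFoCa, and 1.19% and 1.18% in TMut. The ratio of mitochondrial to nuclear members was 0.847 ± 0.086 in WT, 1.04 ± 0.061 in TFoCa and 0.909 ± 0.039 in TMut, so the order of TFoCa and TMut turned when the nuclear members were the denominator.

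**Figure D5:**
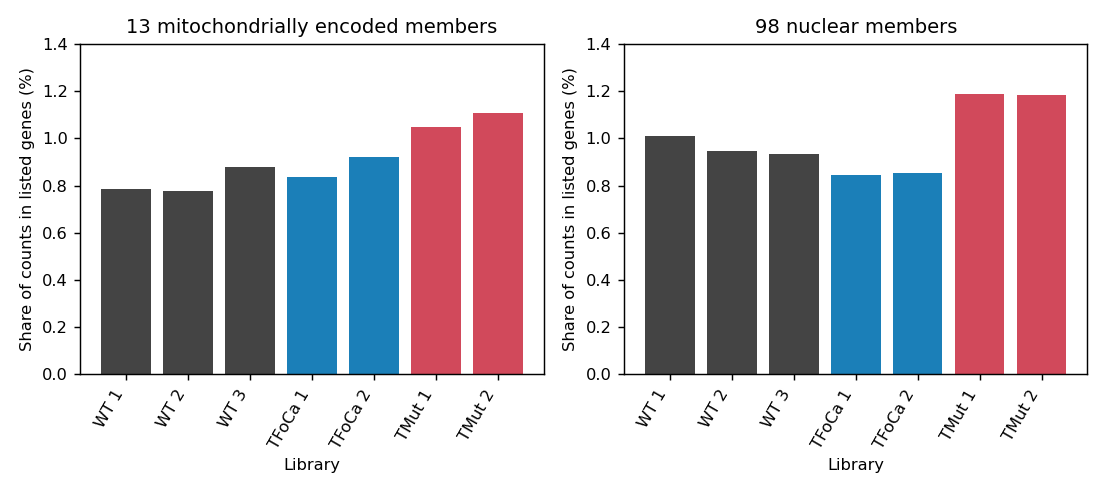
Share of all counts (vertical axes, percent) in each library taken by the 13 mitochondrially encoded members and by the 98 nuclear members. Both shares are highest in TMut 1 and TMut 2, and TFoCa is lowest only for the nuclear members.

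In TFoCa against WT few members passed the test, with 0 rising and 3 falling, while 5.25% of all tested genes rose and 3.52% fell, 8.77% in either direction. The median log2 fold change was -0.14 over the nuclear members, 0.15 over the mitochondrial ones and -0.02 over all genes. In 50 members both TFoCa libraries lay below all 3 WT libraries, 49 of them nuclear, as did 24.2% of all tested genes. Medians of the nuclear subunit genes were -0.11 in complex I, -0.20 in II, -0.15 in III, -0.18 in IV and -0.23 in V. Changes of log2 0.5, larger than these medians, were almost never recovered in the simulated data described below. Those data changed only a small set of genes, so that recovery need not hold for the members. In the real data Cox5a and Ndufa4 were called at -0.50 and -0.49.

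Cox5a, a subunit of complex IV, had 4182, 4310 and 4007 normalized counts in WT, 3057 and 2855 in TFoCa, and 4569 and 4921 in TMut. Its log2 fold change in TFoCa against WT was -0.50 ± 0.09 (SE, adjusted p = 0.0181). Ndufa4, described above, fell by 0.49 (SE 0.11, adjusted p = 0.04), and Ndufs6, a zinc-binding subunit of complex I with 1880, 1730 and 1684 in WT and 1307 and 1255 in TFoCa, fell by 0.46 (SE 0.11, adjusted p = 0.036). In all 3 genes the TFoCa libraries lay below every WT library. Each of these calls was lost when any 1 WT library was left out (adjusted p = 0.0576, 0.0862 and 0.059 for Cox5a, 0.11, 0.0835 and 0.116 for Ndufa4, and 0.108, 0.119 and 0.0945 for Ndufs6, without WT 1, 2 and 3). Ndufa4 also lost its call without TFoCa 2, TMut 1 or TMut 2 (adjusted p = 0.113, 0.0535 and 0.0538), and Ndufs6 without TFoCa 1 or TFoCa 2 (adjusted p = 0.0561 and 0.0807). Ndufaf2 and Atp5j2 narrowly missed the threshold, at -0.56 ± 0.15 (adjusted p = 0.0593) and -0.45 ± 0.12 (adjusted p = 0.0559). Atp5j2 passed without TFoCa 1 (adjusted p = 0.0365).

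In TMut against TFoCa, 82 members rose and 3 fell, while 17.3% of all tested genes rose and 18.5% fell. The median log2 fold change was 0.65 over the nuclear members and 0.52 over the mitochondrial ones. By complex, 31 of 37 nuclear subunit genes rose in complex I, 2 of 4 in II, 7 of 8 in III, 12 of 16 in IV and 16 of 17 in V. Of the 12 nuclear core subunits 7 rose, with a median of 0.32, and of the 53 supernumerary subunits 45 rose, with a median of 0.69. Of the 13 mitochondrial genes, 6 rose. Cox7b, a small subunit of complex IV, showed one of the largest rises, with 1368 and 1104 normalized counts in TFoCa and 2931 and 2797 in TMut (log2 fold change 1.22 ± 0.14 SE, adjusted p = 0.00169). Ndufa2 of complex I rose by 0.85 ± 0.11 (adjusted p = 0.00239) and the assembly factor Ndufaf2 by 0.86 ± 0.16 (adjusted p = 0.00716). The copy Ndufb11b, with 0 and 4.87 in TFoCa and 11.5 and 72.0 in TMut, gave 3.64 ± 1.07 (adjusted p = 0.0327), a fitted value at low counts that depends on the pseudocount. Its call was lost without WT 2, WT 3, TFoCa 1 or TMut 2 (adjusted p = 0.0554, 0.0568, 0.129 and 0.18).

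Members with short transcripts had a higher median in TMut than longer ones, as did other genes. Of 90 nuclear members with a GENCODE length, the 54 of 1000 bases or less had a median log2 fold change in TMut against WT of 0.56 and the 36 longer ones 0.31. Genes that are no members had medians of 0.18 where short and -0.02 where longer. The part of transcript length in the members' rise was not tested.

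Other genes of the pathway, outside the symbol rule, numbered 135 in 10 lists. Cycs, the electron carrier cytochrome c, had 2630, 2180 and 2259 normalized counts in WT, 1965 and 1803 in TFoCa, and 3480 and 3951 in TMut, a log2 fold change of 0.66 ± 0.12 in TMut against WT (SE, adjusted p = 0.00441). Cyc1, cytochrome c1 of complex III, rose by 0.36 ± 0.11 (adjusted p = 0.0315), a call lost without WT 2, WT 3 or TMut 2 (adjusted p = 0.088, 0.11 and 0.205). In TMut against WT, 6 of 23 complex IV assembly genes, 6 of 14 tricarboxylic acid cycle genes and 8 of 14 outer membrane and mass genes rose, and 0, 0 and 1 fell, beside 18.4% of all tested genes rising and 20.4% falling. Suclg1, a subunit of succinyl-CoA ligase, rose by 0.71 ± 0.09 (adjusted p = 0.000775), and Vdac2, an outer membrane channel, by 0.64 ± 0.09 (adjusted p = 0.00147). Of 29 genes for mitochondrial DNA replication, transcription and RNA stability 4 rose and 0 fell, a share of rises below that of all tested genes. Tfam, which packages and transcribes mitochondrial DNA, gave 0.15 ± 0.10 (adjusted p = 0.251).

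Among 12 regulators of respiratory gene transcription, 5 rose and 3 fell in TMut against WT, where 18.4% of all tested genes rose and 20.4% fell. Ppargc1a, the coactivator PGC-1alpha, had 78.5, 136 and 89.7 normalized counts in WT, 101 and 82.8 in TFoCa, and 20.7 and 7.20 in TMut. It was lowest in both TMut libraries, with a log2 fold change of -2.90 ± 0.48 (SE, adjusted p = 0.00294). Its relatives Ppargc1b and Pprc1, named after their values were seen, rose by 1.08 ± 0.36 (adjusted p = 0.0484) and 0.53 ± 0.15 (adjusted p = 0.0238). Both of these calls were lost without any 1 of the WT libraries and without TMut 2, and that of Ppargc1b also without TMut 1. Myc, a transcription factor with many growth and mitochondrial targets, had 775, 602 and 641 in WT, 1661 and 1675 in TFoCa, and 2334 and 3132 in TMut. Its log2 fold change was 2.01 ± 0.16 in TMut (adjusted p = 0.000194) and 1.32 ± 0.16 in TFoCa (adjusted p = 0.00558) against WT.

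Gabpb2, a partner subunit of GABPA, had 2001, 2190 and 2191 normalized counts in WT, 1546 and 1497 in TFoCa, and 1499 and 1325 in TMut. Both mutant genotypes lay below every WT library, with a log2 fold change of -0.59 ± 0.11 (SE, adjusted p = 0.0042) in TMut against WT. In TFoCa against WT Gabpb2 gave -0.48 ± 0.11 (adjusted p = 0.0329). That call was lost without any 1 of the WT or TFoCa libraries and with the replicate block. Nrf1, whose motif was searched above, fell by 0.38 (SE 0.10, adjusted p = 0.0183), a call lost without WT 2, WT 3 or TMut 1 (adjusted p = 0.0639, 0.0667 and 0.107). Esrra, a nuclear receptor that works with PGC-1alpha, rose by 0.60 ± 0.11 (adjusted p = 0.00487). Nrf1 and Esrra are named after their values were seen.

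Of 18 genes of the hypoxia-inducible factor system, 5 rose and 2 fell in TMut against WT. There 18.4% of all tested genes rose and 20.4% fell. In TFoCa against WT 4 rose and 0 fell, where 5.25% and 3.52% of all tested genes did. Car9, a carbonic anhydrase induced by hypoxia, rose by 2.17 ± 0.25 (SE, adjusted p = 0.000593) in TMut. Mxi1 gave -0.73 ± 0.11 (adjusted p = 0.00186) in the same comparison. Vegfa, the angiogenic factor, gave -1.30 ± 0.26 (adjusted p = 0.00649), a call lost without TMut 2 (adjusted p = 0.0509). The hypoxia list thus held genes that rose and genes that fell while Ndufa4l2 fell, and a link between them was not tested.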

How the data were processed

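Total RNA of 7 mouse neural stem cell libraries was sequenced. The submitters' processing notes name the build mm39 and, for the authors' own steps, DESeq2, SAMtools, featureCounts, STAR 2.7.3a and Trim Galore 0.6.5. The annotation, strand setting and treatment of multiply matching reads are not given in the sources used here. The deposited values are a signal, gene counts that the authors divided by a size factor per library. All values came out as whole reads (100% within 0.001), and the size factors were recomputed from them. Summed counts were 33340167 to 62545457 reads per library, and precision is limited by the number of lines.

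Genes that reached a normalized count of 10 in 2 or more libraries (18134) were tested on log2(normalized count + 1) in limma 3.58.1 (R 4.3.3), with all 7 libraries in 1 fit that shared 4 residual degrees of freedom, and p-values were Benjamini-Hochberg adjusted over all genes. Shares were compared by exact permutation. The fit was tested on simulated data with changes planted in a small set of genes. It recovered 0% to 1% of log2 changes of 0.5 and 26% to 38% of those of 1. Many more genes were called in the real data, so these shares need not hold for the members. A gene that was not called may still differ. Alternatives were edgeR 4.0.16 and DESeq2 1.42.0 on recovered reads, other pseudocounts, filters and scalings, fits of 2 genotypes, a replicate block and each library left out. Replicate numbers showed no clear pairing of the libraries: correlations of same-numbered libraries' deviations were 0.0192 to 0.185. With 2 libraries in a genotype these correlations are not independent, and pairing was not tested.

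Named were every mitochondrial member, Sdha to Sdhd, isoform groups and the 2 smallest adjusted p of each complex and comparison. The 5 largest rises and falls called were also named, with up to 2 genes per other list, Cyc1, Cycs and Tfam. Ndufb8, Ndufaf6 and Uqcrc2 met this rule in TFoCa against WT but are not described above. Other exceptions are marked in the text. Members and lists were chosen with earlier results of these data known. Copies were found with blastn 2.17.0 at 90% identity or more among GENCODE M21 transcripts, and a nearly whole copy covered 95% or more of the gene. Older symbols such as Atp5g1 are kept as deposited. The values of 1 member are not reported here, though it is counted in the sets.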

Additional observations from a re-analysis of the deposited data

Results flagged for a closer look

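The sums of 2 sets of rows outside the genes analysed were higher in both TMut libraries than in any WT library. The 16 mitochondrial tRNA rows that the symbol rule leaves out summed to 2208 normalized counts in TMut 1 and 1803 in TMut 2, against at most 1618 in WT. The 7 listed chromosome 1 copies of mitochondrial genes summed to 2569 in TMut 1 and 2310 in TMut 2, against at most 1497 in WT. Reads that match a copy and its mitochondrial gene equally cannot be assigned to either. The sum of the copies is therefore not separate from the members' own counts. No test was made of either sum.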

How the results depend on the processing

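Of the 73 member calls in TMut against WT, 38 held in every alternative and 33 were lost without some library. Of the 85 in TMut against TFoCa, 52 held and 31 were lost so, and of the 3 in TFoCa against WT, 0 held. Where a value moved, the cause was not tested.

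Leaving out 1 library in turn gave 49 to 71 rising and 1 to 3 falling members in TMut against WT, 59 to 78 and 3 to 4 in TMut against TFoCa, and 0 to 2 and 0 to 4 in TFoCa against WT. Median log2 fold changes of nuclear members ranged from 0.45 to 0.54, 0.62 to 0.67 and -0.18 to -0.11, and of mitochondrial members from 0.71 to 0.78, 0.45 to 0.61 and 0.11 to 0.24, in the same order. The mitochondrial share differed by 0.235 to 0.296, 0.155 to 0.239 and 0.0248 to 0.109 percentage points. Alternatives for the other pathway lists were added after seeing the data. Their counts ranged over 21 to 54 rising and 4 to 10 falling, 18 to 41 and 3 to 7, and 4 to 10 and 1 to 4.

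With the replicate block, the 3 falling members of TFoCa against WT lost their calls and 1 other, Ndufb11b, passed, for a count of 1, with a mitochondrial median of 0.21, and TMut against WT had 51 rising and 1 falling member and a mitochondrial median of 0.71. The block left WT 3 alone in its block. Other pathway genes under the block numbered 3 rising and 1 falling in TFoCa against WT, 22 rising in TMut against WT and 23 rising in TMut against TFoCa. DESeq2 called 9 falling members in TFoCa against WT and 6 falling genes of the other lists. Scaling to total nuclear counts gave nuclear medians of 0.38 and 0.57 and mitochondrial medians of 0.68 and 0.44 in TMut against WT and TFoCa, and 26 rising other genes in TMut against WT and 4 falling in TFoCa. The mitochondrial median in TMut against WT was 0.66 with a pseudocount of 8 and 0.83 in edgeR, and in TMut against TFoCa 0.62 with a mean of 50 or more. That filter, and the fit of 2 genotypes, each gave 4 falling other genes in TFoCa, and the fit of 2 genotypes gave 21 rising in TMut against TFoCa. As a percent of the nuclear members' counts, the mitochondrially encoded share of counts, TMut versus TFoCa, turned to -12.7 percentage points.

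Single genes that turned direction were uncalled in the fit reported. Leaving out 1 library in turn gave, in TFoCa against WT, -0.243 to 0.051 for Atp5g1, -0.432 to 0.135 for Cox7a1, -0.032 to 0.19 for Cox7a2l, -0.173 to 0.316 for Sdhc, -0.017 to 0.135 for Uqcc1 and -0.082 to 0.017 for mt-Nd1, the last also 0.017 with the block, and Ndufs1 and Ndufa10 turned without TFoCa 2. In TMut against WT it gave -0.091 to 0.895 for Cox7a1 and -0.119 to 1.47 for mt-Atp8. In TMut against TFoCa it gave -0.634 to 0.953 for mt-Atp8, -0.033 to 0.301 for mt-Co1 and -0.229 to 0.223 for mt-Nd3. mt-Nd3 also gave 0.00049 with a pseudocount of 8, 0.0069 with TMM, 0.026 in edgeR and 0.014 in DESeq2.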
